A study of Homo sapiens with 6 samples.

Results

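Cathepsins are proteases of the endosome and lysosome, made as inactive precursors that reach the lysosome mostly through mannose 6-phosphate tags and become active in its acid interior. The name joins enzymes of different chemistry: most are cysteine proteases related to papain, cathepsin D is an aspartic protease, and cathepsin A is a serine carboxypeptidase. Small inhibitor proteins called cystatins block the cysteine members when these meet them outside or inside the vesicle. In cells of the myeloid lineage cathepsins digest ingested protein, trim antigens, and switch on the serine proteases stored in granules.

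The 10 cathepsin transcripts described here were taken by gene symbol from 21857 listed genes: CTSA, CTSB, CTSC, CTSD, CTSF, CTSH, CTSK, CTSL, CTSS and CTSZ. They were measured by bulk RNA sequencing in MV4;11, an established human acute myeloid leukemia line whose genotype is labelled FLT3-ITD MLL-AF4, so every library carries that internal tandem duplication and that fusion. Cells grew in RPMI1640 with fetal bovine serum and antibiotics, and 3 libraries came from untreated cells (control) and 3 from cells given flavokawain A (FKA, a chalcone of the kava plant) at 10 µg/ml for 48 h. The vehicle of the controls is not given in the sources used here, and 1 cell line and 1 dose were sequenced. Each of 3 labelled batches holds 1 control and 1 FKA library. Nothing in the labels says that the libraries of a group came from separate cultures, so p-values measure the spread between these libraries, which may be technical. In bulk RNA, fewer cells of a type and less RNA per cell cannot be told apart.

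Library totals ran from 29971171 to 36362421 counts. FLT3 and the leukocyte gene PTPRC were present in all 6 libraries. FLT3 was between 68.0 and 109 FPKM (as deposited, counts scaled by gene length and library total) and PTPRC between 63.9 and 124 FPKM. The 5 erythroid markers were not analysed here, and T-cell CD3D stayed at or below 0.0360 FPKM. The B-cell markers summed to 0.216 to 0.430 FPKM in controls and 0.134 to 0.532 FPKM with FKA. Among them CD79B was at 0 in all controls and at 0.160 and 0.0241 FPKM in FKA replicates 2 and 3. NKG7, a granule gene of T and NK cells, was at 22.1 to 26.6 FPKM in controls and 10.9 to 11.3 FPKM with FKA. FKA replicates 2 and 3 stood apart in reads of COL1A1 and fibronectin (FN1): COL1A1 was at 2.34 and 2.28 FPKM there and at or below 0.380 FPKM in the other 4 libraries, and FN1 was at 3.11 and 2.78 FPKM there. COL1A2 (1.12 and 0.87 FPKM), COL3A1 (1.06 and 0.999) and SPARC (0.841 and 0.856) were also highest in replicates 2 and 3. So were COL5A1, DCN, LUM, POSTN, TAGLN and THY1 of the same list, but not ACTA2 and PDGFRB. COL6A3, another collagen of the list, was lower with FKA, with 3.65, 2.31 and 1.62 FPKM in controls and 0.892, 1.08 and 1.48 FPKM with FKA (log2 fold change -1.29, SE 0.302, adjusted p = 0.0053 in edgeR). The summed level of the 14 mesenchymal markers overlapped between groups (13.1 to 24.8 FPKM in controls, 13.6 to 24.7 FPKM with FKA). ACTA2 made up most of it in each library, so the sum says little about the other markers. KRT18 and KRT8, the most abundant of 5 epithelial markers, did not exceed 10.5 and 3.38 FPKM.

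The promoters of 7 of the 10 genes matched the RefSeq table by symbol (GRCh38.p14), and those of CTSB, CTSK and CTSS did not match. The 250 bases before the annotated start are printed, 5′ to 3′ on the gene's strand, for CTSD, CTSA and CTSL, which rose, and for CTSC, which fell, so that genes that moved apart can be read side by side. They lie at chr11:1763928-1764177 (minus strand), chr20:45891085-45891334 (plus strand), chr9:87725869-87726118 (plus strand) and chr11:88337737-88337986 (minus strand). Capitals mark matches on either strand to the E-box CACGTG, its variant CACATG, the core of the antioxidant response element TGACNNNGC and the AP-1 site TGACTCA.
CTSD: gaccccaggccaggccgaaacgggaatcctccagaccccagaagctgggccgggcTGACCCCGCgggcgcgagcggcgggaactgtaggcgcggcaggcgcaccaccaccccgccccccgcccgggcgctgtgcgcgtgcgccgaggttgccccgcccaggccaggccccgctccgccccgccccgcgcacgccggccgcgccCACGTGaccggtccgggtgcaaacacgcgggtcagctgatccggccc
CTSA: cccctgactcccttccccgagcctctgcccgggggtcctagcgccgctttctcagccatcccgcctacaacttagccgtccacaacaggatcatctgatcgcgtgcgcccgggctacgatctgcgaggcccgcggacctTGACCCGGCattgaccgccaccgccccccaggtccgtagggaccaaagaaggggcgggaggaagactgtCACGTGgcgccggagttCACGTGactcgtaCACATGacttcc
CTSL: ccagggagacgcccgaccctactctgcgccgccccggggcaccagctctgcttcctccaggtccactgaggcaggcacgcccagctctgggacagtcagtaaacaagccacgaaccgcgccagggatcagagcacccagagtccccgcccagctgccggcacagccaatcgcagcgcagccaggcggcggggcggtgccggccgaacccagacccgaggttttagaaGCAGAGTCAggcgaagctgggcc
CTSC: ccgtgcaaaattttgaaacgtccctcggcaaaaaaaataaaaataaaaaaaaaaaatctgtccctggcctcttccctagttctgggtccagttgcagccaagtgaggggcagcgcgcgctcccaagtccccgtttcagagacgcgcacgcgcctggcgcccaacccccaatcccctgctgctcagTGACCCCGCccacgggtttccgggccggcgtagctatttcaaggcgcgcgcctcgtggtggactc

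The E-box CACGTG is the centre of the CLEAR element, the motif bound by TFEB and its relatives at lysosomal genes. It was found in 3 of the 7 windows (CTSA, CTSD and CTSF) and in 6.3% of 35116 RefSeq windows of that length. CTSA carried it at 2 places, 42 to 37 and 25 to 20 bases before the start, and the second lies inside the longer palindrome TCACGTGA, which 0.9% of all windows hold. In CTSD it lay 47 to 42 bases before the start. CTSF, whose transcript was near 0 in these cells, carried it at 2 places as well. TGACNNNGC, the core that NRF2 binds, was present in 5 windows (CTSA, CTSC, CTSD, CTSL and CTSZ) against 10.9% of all windows, and so in genes that rose and in CTSC, which fell. TGACTCA was in none of the 7 windows and in 4.2% of all. Of the other motifs searched, the GC box GGGCGG was in 6 windows and in 42.6% of all. GAGGAA, the core of ETS sites, was in 4 windows and in 23.6% of all. CACATG was in 1 window (9.4% of all) and the TATA box TATAAA in none (10.7% of all). The 7 windows held 56.4% to 81.2% G and C, where the median of all windows was 58.0%. A match describes letters, not binding, and no binding was measured.

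Per unit length, cathepsins Z, S and B led in the untreated controls with means of 46.1 ± 7.87, 41.6 ± 1.90 and 37.8 ± 3.36 FPKM (SD, n = 3), and their ranges overlapped with the neighbour in that order. CTSC followed at 26.6 ± 1.11, CTSD at 17.0 ± 0.363 and CTSA at 13.4 ± 1.5 FPKM, each apart from its neighbours. CTSL and CTSK were near each other, at 2.30 ± 0.287 and 2.17 ± 0.261 FPKM, and CTSH and CTSF were at 0.320 and 0.0135 FPKM. With FKA the order changed. CTSB led at 90.4 ± 7.46 FPKM, followed by CTSD at 81.9 ± 19.6 FPKM, whose range overlapped that of CTSB and of CTSZ. CTSZ stood at 63.6 ± 5.12, CTSS at 56.9 ± 1.74, CTSA at 45.8 ± 7.39 and CTSC at 21.8 ± 1.49 FPKM. CTSK and CTSL again overlapped, at 11.9 ± 0.328 and 10.9 ± 1.5 FPKM.

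**Figure D1:**
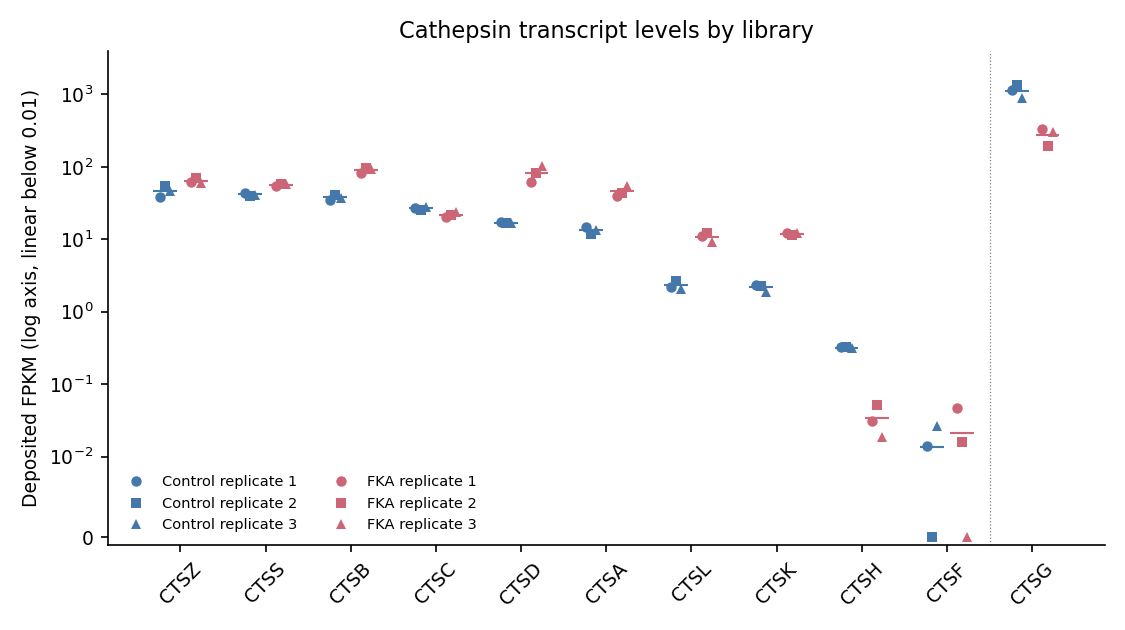
Deposited FPKM of the 10 cathepsins and of CTSG in each library, on a log axis that is linear below 0.01; blue points are the 3 control libraries, red points the 3 FKA libraries, shapes give the replicate and short lines the group means. CTSD moves from 17.0 to 81.9 FPKM on average and the points of its groups are apart, while CTSF lies near 0 in both groups.

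The comparison of FKA with control asks how the drug alters transcripts of the line. Of the 10 cathepsins, 7 rose, 2 fell and CTSF had too few counts to be tested. Across all 13531 tested genes 29.3% rose, 30.5% fell and 59.8% changed in either direction, by edgeR's quasi-likelihood test with a Benjamini-Hochberg adjusted p under 0.05. 5 of the 10 rose at least 2-fold, as did 11.9% of all tested genes, and CTSH fell at least 2-fold, as did 13.7%. The median log2 fold change of the 9 tested members was 1.10, and that of all tested genes 0.01. CTSH was tested only because of its control counts and so had to differ, and the members had been listed with results of these libraries known. The groups did not overlap for any of the 9, as was so for 67.3% of all tested genes. Leaving out FKA replicates 2 and 3, the libraries highest in COL1A1 and FN1, leaves 1 FKA library. The log2 fold changes were then 2.31 for CTSK, 2.12 for CTSL, 1.70 for CTSD, 1.41 for CTSA and 0.96 for CTSB. They were 0.25 for CTSZ, 0.23 for CTSS, -0.54 for CTSC and -3.50 for CTSH.

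Cathepsin D is the main aspartic protease of the lysosome and helps release saposins from their precursor. Its transcript stood at 38.8, 35.1 and 36.7 CPM (counts scaled to library size with TMM factors) in control replicates 1 to 3 and at 121, 160 and 198 CPM in FKA replicates 1 to 3. All FKA libraries were above all controls, and they were spread more widely than the controls. The log2 fold change was 2.11 (SE 0.166, adjusted p = 1.74e-05 in edgeR), a 4.32-fold rise, and the within-batch log2 differences were 1.63, 2.18 and 2.43.

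Cathepsin A trims single residues from protein ends and holds beta-galactosidase and neuraminidase in a stable complex. Its level was 49.9, 37.2 and 44.3 CPM in controls and 118, 125 and 160 CPM with FKA, so the groups were apart. The log2 fold change was 1.62 (SE 0.147, adjusted p = 3.56e-05 in edgeR), a 3.07-fold rise. As with cathepsin D, FKA replicate 3 was the highest library. The genes of its partners rose too: NEU1, the neuraminidase, by 1.54 on the log2 scale (SE 0.136, adjusted p = 3.05e-05 in edgeR) and GLB1, the galactosidase, by 0.72 (SE 0.133, adjusted p = 0.00147 in edgeR). PSAP, the saposin precursor, went from 394, 353 and 335 CPM to 1090, 1150 and 1330 CPM (log2 fold change 1.72, SE 0.116, adjusted p = 9.33e-06 in edgeR). GM2A, another activator of lipid breakdown, was at 0.44 (SE 0.225, adjusted p = 0.117 in edgeR), and passed when the batch was a block (0.48, adjusted p = 0.039 in edgeR), when only library totals were used for scaling (0.61, adjusted p = 0.0308 in edgeR) and without control replicate 1 (0.71, adjusted p = 0.00905 in edgeR).

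Among the cysteine endopeptidases, CTSK and CTSL rose from low levels. Cathepsin K, the collagen-cleaving enzyme known from osteoclasts, was at 4.18, 3.77 and 3.27 CPM in controls and 18.7, 17.6 and 18.9 CPM with FKA. Its log2 fold change of 2.30 (SE 0.151, adjusted p = 8.32e-06 in edgeR), or 4.92-fold, was the highest among the 7 that rose. CTSK was at 12.1 FPKM in FKA replicate 1, where COL1A1 was at 0.0607 FPKM, and at 11.6 and 12.2 FPKM in replicates 2 and 3, where COL1A1 was at 2.34 and 2.28 FPKM. The fit without replicates 2 and 3 gave 2.31 (adjusted p = 0.000592 in edgeR). Of 5 other osteoclast markers, OSCAR fell from 3.49 to 3.93 FPKM in controls to 0.443 to 0.641 FPKM with FKA (log2 fold change -3.0, SE 0.228, adjusted p = 1.51e-05 in edgeR), ACP5 did not exceed 0.0158 FPKM, OCSTAMP did not exceed 0.349 FPKM, DCSTAMP did not exceed 0.0617 FPKM, and CALCR was not analysed here. The summed level of the list was 3.62 to 4.34 FPKM in controls and 0.474 to 0.708 FPKM with FKA, and the part of other cell types in the CTSK values was not tested.

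Cathepsin L, a broad endopeptidase of the lysosome, was at 4.25, 4.69 and 3.90 CPM in controls and at 18.7, 20.1 and 15.5 CPM with FKA. Every FKA library lay above the controls, with replicate 3 the lowest of them, unlike CTSD and CTSA. The log2 fold change was 2.08 (SE 0.162, adjusted p = 1.65e-05 in edgeR) and the within-batch differences were 2.14, 2.10 and 1.99. Its close relative CTSV had 2 counts over the controls and 1 over the FKA libraries, so few reads were assigned to that copy.

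Cathepsin B, which works both as an endopeptidase and as a remover of dipeptides, had the highest level with FKA. It stood at 185, 206 and 198 CPM in controls and 384, 446 and 433 CPM with FKA. The rise was 2.14-fold (log2 fold change 1.10, SE 0.0978, adjusted p = 3.17e-05 in edgeR), and the within-batch differences of 1.06, 1.11 and 1.13 were close together.

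Cathepsin S, which cuts the invariant chain of class II molecules and stays active at neutral pH, moved little. Its values were 187, 160 and 174 CPM in controls and 205, 215 and 216 CPM with FKA, groups that did not overlap. The log2 fold change was 0.29 (SE 0.0894, adjusted p = 0.0199 in edgeR), and it was 0.22 (adjusted p = 0.0785 in edgeR) without control replicate 2, 0.28 (0.0649) without control replicate 3, 0.28 (0.0548) without FKA replicate 2 and 0.28 (0.0604) without FKA replicate 3. CTSS and CTSK are neighbours among protein-coding genes of the RefSeq table, with log2 fold changes of 0.29 and 2.30.

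Cathepsin Z, a carboxypeptidase also called cathepsin X, was at 61.9, 81.9 and 74.9 CPM in controls and 87.0, 97.8 and 86.5 CPM with FKA. Control replicate 1 was the lowest, and the highest control lay just under the lowest FKA library. The log2 fold change of 0.31 (SE 0.115, adjusted p = 0.0422 in edgeR) lost its call without control replicate 1 (0.20, adjusted p = 0.0995 in edgeR), without control replicate 3 (0.32, 0.0866) and without FKA replicate 1 (0.34, 0.0716), 2 (0.25, 0.135) or 3 (0.34, 0.0634). DESeq2 did not call it either (0.30, adjusted p = 0.0606).

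**Figure D2:**
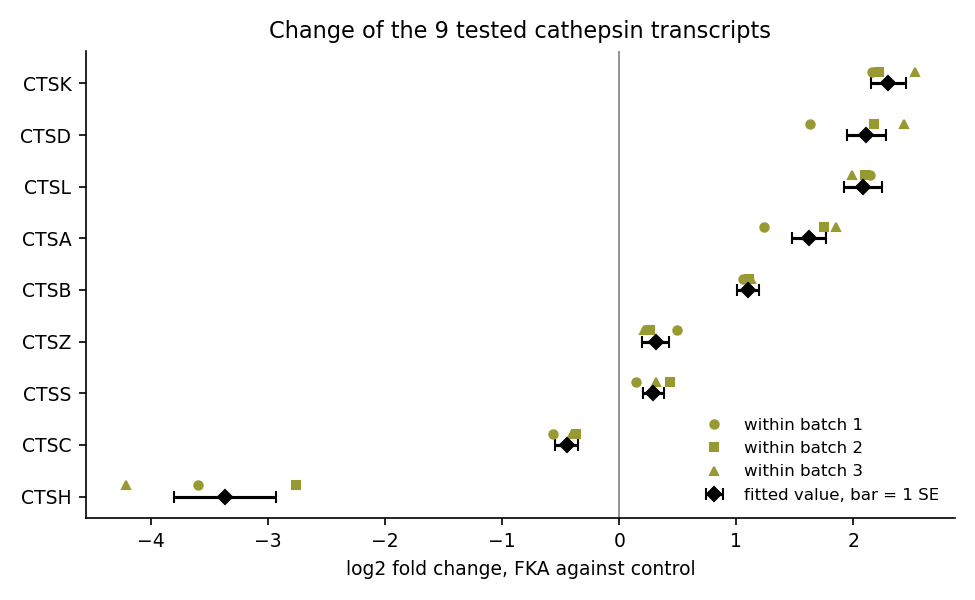
Log2 fold change of FKA against control for the 9 tested cathepsins; black diamonds are fitted values with bars of 1 SE, and olive points are the differences within batches 1 to 3. CTSK, CTSD and CTSL lie at 2.30, 2.11 and 2.08, CTSS and CTSZ near 0.3, and CTSC and CTSH below 0.

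The 2 members that fell are exopeptidases, a trait shared by the carboxypeptidases CTSA and CTSZ and in part by CTSB, which rose. Cathepsin C, or dipeptidyl peptidase I, removes the short propeptide that keeps granule serine proteases inactive. It was at 220, 196 and 225 CPM in controls and 148, 152 and 170 CPM with FKA, so it was lower in every FKA library. The log2 fold change was -0.45 (SE 0.0955, adjusted p = 0.00336 in edgeR), and -0.29 (adjusted p = 0.0193 in edgeR) when only library totals were used for scaling, a choice that shifts the median of all genes by 0.16. Cathepsin H, an aminopeptidase, had 35, 38 and 36 counts in controls and 3, 5 and 2 counts with FKA. The control counts hardly varied and the FKA counts were all far lower, with a log2 fold change of -3.37 (SE 0.432, adjusted p = 0.000211 in edgeR). Its level was low throughout, at 0.320 ± 0.00743 FPKM in controls and 0.0337 ± 0.0168 FPKM with FKA, and on the log2(FPKM + 1) scale the difference was -0.35. Cathepsin F, which can process the invariant chain in macrophages, had 3 counts over the controls (exact 95% Poisson interval 0.62 to 8.77, for counting error only) and 4 over the FKA libraries (1.09 to 10.24), and no difference was detectable at this depth.

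**Figure D3:**
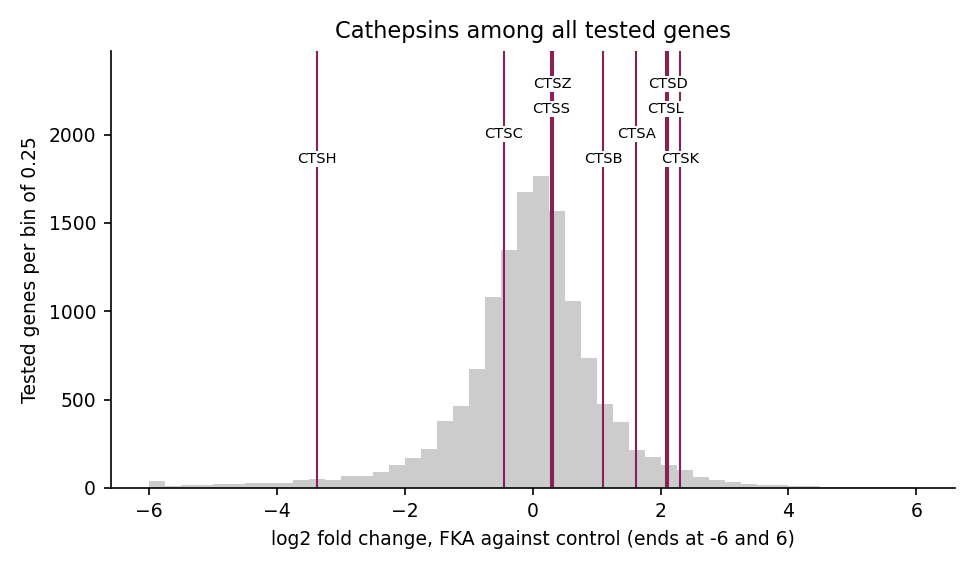
Histogram of the log2 fold changes of all 13531 tested genes in bins of 0.25 (values beyond -6 and 6 are placed in the end bins), with a line for each of the 9 tested cathepsins. CTSH lies in the left tail at -3.37 and CTSA, CTSL, CTSD and CTSK in the right tail between 1.62 and 2.30.

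The pool of cathepsin transcripts grew and changed in make-up. Summed over the 10 genes, FPKM was 180.0, 194.2 and 187.6 in controls and 343.9, 396.0 and 410.0 with FKA, a ratio of means of 2.05. The 8 cysteine members together went from 156.9 ± 8.89 to 255.6 ± 13.9 FPKM, a ratio of 1.63, against 4.83 for CTSD and 3.43 for CTSA. FPKM is scaled by library totals, which makes these ratios higher than the TMM-scaled folds of 4.32 for CTSD and 3.07 for CTSA. As a share of the sum, CTSD went from 9.08% ± 0.517 to 21.2% ± 3.34 and CTSA from 7.16% ± 1.07 to 11.9% ± 1.16. CTSB went from 20.2% ± 1.03 to 23.6% ± 1.01. CTSC went from 14.2% ± 0.972 to 5.71% ± 0.282, CTSS from 22.3% ± 1.87 to 14.9% ± 0.987 and CTSZ from 24.5% ± 3.29 to 16.7% ± 1.70. The shares of CTSS and CTSZ were thus smaller with FKA although their levels were higher. These shares were not tested.

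**Figure D4:**
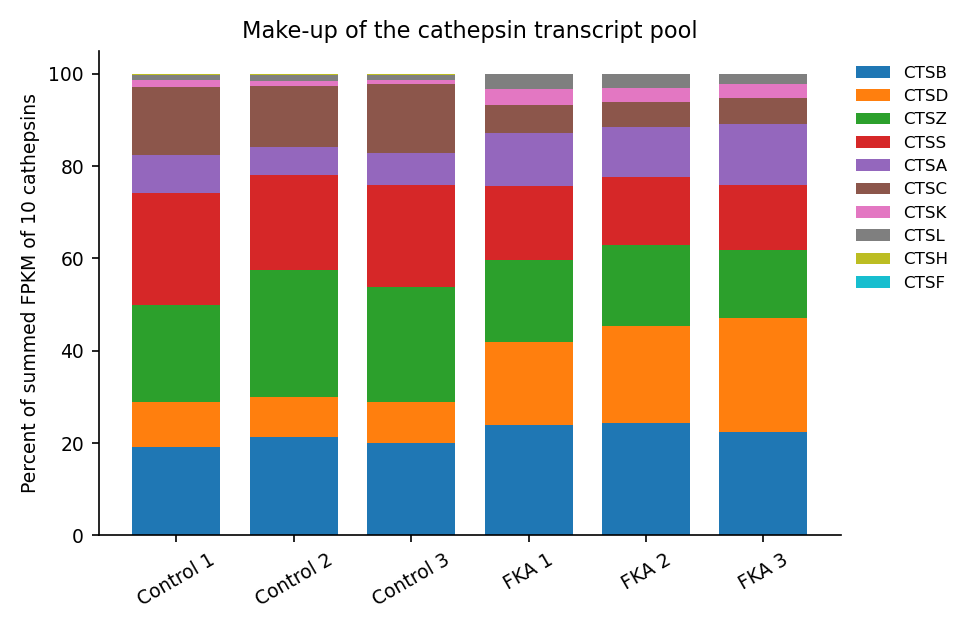
Share of each cathepsin in the summed FPKM of the 10 genes, in percent, as stacked bars for the 6 libraries. CTSD takes 8.67% to 9.66% in the controls and 17.97% to 24.6% with FKA, and CTSC 13.1% to 14.8% and 5.42% to 5.98%.

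Outside these 10, the granule protease cathepsin G was the most abundant transcript bearing the cathepsin name. CTSG was at 1180, 1330 and 903 CPM in controls and 300, 175 and 277 CPM with FKA (log2 fold change -2.18, SE 0.218, adjusted p = 5.95e-05 in edgeR). In FPKM it stood above the sum of the 10 members in every control library (1136, 1367 and 882 FPKM) and below it in every FKA library (331, 196 and 303 FPKM). CTSO, a lysosomal cysteine member, was at 22.1, 8.05 and 12.7 CPM in controls and 20.6, 15.9 and 19.3 CPM with FKA. Its log2 fold change was 0.38 (SE 0.31, adjusted p = 0.31 in edgeR), and 0.83 (adjusted p = 0.0101 in edgeR) without control replicate 1. CTSW had 37 and 23 counts over the groups and was not tested.

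Of 13 listed granule proteins that cathepsin C processes, 5 were tested, and 2 rose and 3 fell, beside 29.3% and 30.5% of all tested genes. Calls of the 2 that rose, ELANE and AZU1, depend on single libraries. Besides CTSG, PRSS57 fell by 1.16 on the log2 scale (SE 0.124, adjusted p = 8.16e-05 in edgeR). PRTN3, proteinase 3, was at 27.3, 20.1 and 31.4 CPM in controls and 4.32, 3.59 and 18.8 CPM with FKA (log2 fold change -1.56, SE 0.544, adjusted p = 0.0337 in edgeR). ELANE, neutrophil elastase, was at 306, 203 and 246 CPM in controls and 437, 239 and 935 CPM with FKA (1.09, SE 0.408, adjusted p = 0.0434 in edgeR), with groups that overlapped. ELANE stood at 0.43 (adjusted p = 0.19 in edgeR) without FKA replicate 3, and lost its call without FKA replicate 1 (1.22, 0.0557) and without control replicate 1 (1.25, 0.0509), 2 (0.95, 0.12) or 3 (1.07, 0.106). PRTN3 lost its call without control replicate 1 (-1.53, adjusted p = 0.0592 in edgeR) or 3 (-1.42, 0.0895) and without FKA replicate 1 (-1.23, 0.0993) or 2 (-1.18, 0.0786). AZU1, an inactive relative named after its value was seen, rose by 0.62 (SE 0.202, adjusted p = 0.0254 in edgeR) and lost its call without control replicate 2 (0.52, 0.0779) or 3 (0.59, 0.0783) and without FKA replicate 1 (0.59, 0.0705) or 3 (0.42, 0.0972). DESeq2 called neither ELANE (1.08, adjusted p = 0.117) nor PRTN3 (-1.58, adjusted p = 0.0822).

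Of 17 listed inhibitors of cathepsins 5 were tested, 3 rose and 2 fell, too few to set against the 29.3% and 30.5% of all tested genes. Cystatin F (CST7), an endosomal inhibitor known to act on cathepsin C, was at 82.8, 55.6 and 56.3 CPM in controls and 6.99, 7.69 and 12.6 CPM with FKA, lower in every library (log2 fold change -2.83, SE 0.249, adjusted p = 3e-05 in edgeR). Cystatin A (CSTA), a cytosolic inhibitor, fell by 0.79 (SE 0.0859, adjusted p = 8.65e-05 in edgeR). Per length it remained the most abundant of the 5, at 208 FPKM in controls and 134 FPKM with FKA. SERPINB1, which blocks granule serine proteases, rose by 0.86 (SE 0.107, adjusted p = 0.000178 in edgeR) and cystatin B (CSTB) by 0.39 (SE 0.107, adjusted p = 0.0118 in edgeR). Without FKA replicates 2 and 3, CSTB was at 0.19 (adjusted p = 0.407 in edgeR). The secreted cystatin C (CST3), named after its value was seen, rose by 0.31 (SE 0.111, adjusted p = 0.0377 in edgeR) but lost its call without control replicate 1 (0.31, 0.057), 2 (0.26, 0.111) or 3 (0.32, 0.0771) and without FKA replicate 1 (0.32, 0.078) or 3 (0.20, 0.151). Without FKA replicates 2 and 3 together, which leaves 1 FKA library, CST3 was at 0.27 and was not called. With FKA, CTSC and CST7 thus stood at 21.8 and 10.8 FPKM, after 26.6 and 68.7 FPKM in controls.

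Genes that tag and carry cathepsins to the lysosome rose or did not pass the test, apart from the retromer gene VPS35 (-0.32, adjusted p = 0.013 in edgeR), which was named after its value was seen and stood at -0.28 (0.054) without control replicate 3 and at -0.16 (0.122) with library totals alone. Of 18 listed, 17 were tested, 9 rose, 1 fell and 7 were not called, with a median log2 fold change of 0.37. The share of calls was near that of all tested genes (59.8%), of which 29.3% rose and 30.5% fell. The phosphotransferase that starts the mannose 6-phosphate tag rose in both its genes, GNPTAB by 1.33 (SE 0.0939, adjusted p = 1.04e-05 in edgeR) and GNPTG by 0.99 (SE 0.149, adjusted p = 0.000521 in edgeR). NAGPA, which uncovers the tag, rose by 0.75 (SE 0.186, adjusted p = 0.00713 in edgeR). SORT1, a sorting receptor, rose by 1.94 from 1.08 CPM (SE 0.429, adjusted p = 0.00404 in edgeR). Without FKA replicates 2 and 3, which leaves 1 FKA library, NAGPA (0.69) and SORT1 (1.54) were not called.

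Of 29 other lysosomal hydrolases, which share this route and were all tested, 19 rose, 2 fell and 8 were not called, with a median log2 fold change of 0.62, beside 29.3% and 30.5% of all tested genes and their median of 0.01. With 1 library left out, 16 to 20 of this list rose and 2 to 3 fell. Over all genes, 3365 to 3981 rose there and 3711 to 4212 fell. The fit without FKA replicates 2 and 3 leaves 1 FKA library, so its calls in this list are not counted here. IDS, a sulfatase of glycosaminoglycans, rose by 1.71 (SE 0.116, adjusted p = 9.63e-06 in edgeR) and the sulfatide enzyme ARSA by 1.75 (SE 0.113, adjusted p = 7.78e-06 in edgeR). SMPD1, acid sphingomyelinase, rose by 2.10 (SE 0.265, adjusted p = 0.000196 in edgeR). SGSH, the heparan sulfamidase, was at 0.129, 0.251 and 0.0892 CPM in controls and 2.45, 3.97 and 2.91 CPM with FKA, at a log2 fold change of 4.26 (SE 0.415). It was tested only because of its FKA counts and so had to differ. AGA, named after its value was seen, was among the 2 that fell (-0.54) and stood at -0.45 (adjusted p = 0.104 in edgeR) without FKA replicates 2 and 3.

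Among the MiT/TFE factors, whose family binds the CLEAR element, TFE3 was at 21.8, 32.8 and 28.3 CPM in controls and 77.9, 117 and 99.7 CPM with FKA, a log2 fold change of 1.83 (SE 0.183, adjusted p = 5.95e-05 in edgeR). TFEB was at -0.61 (SE 0.175, adjusted p = 0.0147 in edgeR) and missed the threshold without control replicate 2 (-0.52, adjusted p = 0.0501 in edgeR) or 3 (-0.52, 0.0573) and with library totals alone (-0.46, 0.0585). TFEC was at 0.60 (SE 0.226, adjusted p = 0.0445 in edgeR), with groups that overlapped, and lost its call without control replicate 1 (0.51, 0.114), 2 (0.59, 0.0968) or 3 (0.69, 0.0594) and without FKA replicate 2 (0.61, 0.0812) or 3 (0.34, 0.178). MITF was at -0.02 (SE 0.199, adjusted p = 0.921 in edgeR), and at 0.13 with library totals alone.

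**Figure D5:**
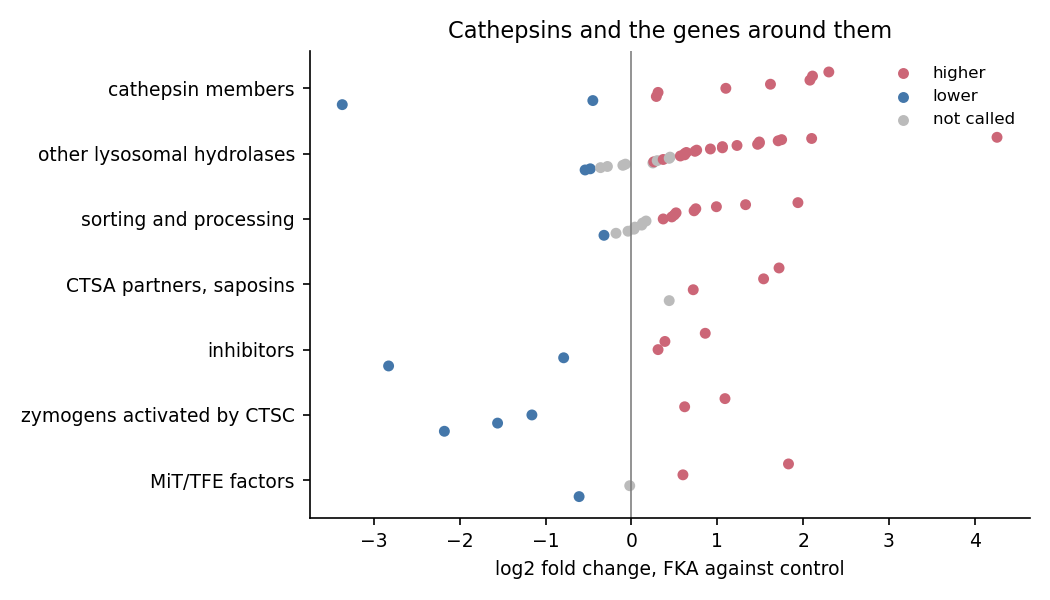
Log2 fold change of FKA against control for each tested gene of the cathepsins and of 6 related lists; red points rose, blue points fell and grey points did not pass edgeR's adjusted p threshold of 0.05. In the hydrolase list 19 of 29 points are red, and the inhibitors and the zymogens hold points on either side of 0.

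Cathepsins are also abundant in monocytes and macrophages, so markers of these cells were read in the same libraries. Of 16 listed, 14 were in the table and 10 were tested, of which 5 rose, 1 fell and 4 were not called, a share of calls near the 59.8% of all tested genes. Their summed level was 92.0 to 103 FPKM in controls and 135 to 221 FPKM with FKA. CD68 and LYZ together made up most of it in each library, so the sum says little about the other markers. CD68, a lysosomal membrane glycoprotein, went from 35.8, 42.4 and 36.1 FPKM to 77.7, 91.1 and 102.5 FPKM. LYZ, lysozyme, was at 38.8 to 43.0 FPKM in controls and 32.3, 37.8 and 83.1 FPKM with FKA, highest in replicate 3, the library in which CTSD and CTSA were highest. The receptor CSF1R rose by 3.60 on the log2 scale (SE 0.243) to a mean of 5.88 FPKM, the integrin ITGAM by 1.51 (SE 0.219) to 10.2 FPKM, the costimulatory CD86 by 2.46 (SE 0.438) and CD14 by 2.22 (SE 0.419), with adjusted p = 0.00174 or less in edgeR. The Fc receptor FCGR1A fell by 1.82 (SE 0.181, adjusted p = 5.82e-05 in edgeR). CD14 had 5, 13 and 6 counts in controls and 29, 35 and 47 counts with FKA. It is among the 5 that rose, but was tested only because of its FKA counts and so had to differ. CD14 did not exceed 0.862 FPKM in any library, CD163 did not exceed 0.0993 FPKM, and MRC1 was at 0 in 5 libraries. Their part in the cathepsin values was not tested.

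Genes of like profile were sought among 10593 non-member genes with a mean FPKM of at least 1, a level that CTSH itself did not reach. The genes most like 2 members were found by the distance of log2 CPM, centred on the control mean, over the 6 libraries. For CTSB, the member with the highest FPKM averaged over the 6 libraries, these included SUFU (distance 0.0903) and TRIP10 (0.104), with log2 fold changes of 1.09 and 1.13. For CTSH, whose change was the largest among the tested members, they were LOC105369783 (0.668), the chromatin remodeler HELLS (0.729) and LOC105373247 (0.777), with log2 fold changes of -3.26, -2.97 and -2.99. The points share libraries and a change between the groups, so the distances describe these libraries only.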

How the data were processed

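RNA of 6 MV4;11 libraries was sequenced, and the authors deposited 1 table of whole-number read counts and 1 of FPKM values for 21857 genes, with columns named by group and replicate. Per the labels' protocols, total RNA was prepared with a kit. Sources used here do not name the aligner, counter, annotation or strandedness. GRCm38 and mm10, names of mouse builds, stand in the submitters' processing notes, while 95.6% of the symbols are in the human RefSeq table. No coordinates of the counts are therefore given. The deposited FPKM equals the count over the column total and 1 length per gene (largest relative deviation 8.4e-07).

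Counts were tested in R 4.3.3 with edgeR 4.0.16 (filterByExpr by group, 13531 genes, TMM, quasi-likelihood F test, Benjamini-Hochberg over all tested genes, threshold 0.05). SE is the log2 fold change over the root of F. CPM are TMM-scaled. FPKM, which is scaled by library totals, was used to compare genes. Replicate pairs differed beyond counting noise (chi-square of 21.7 to 66.3 per degree of freedom). On simulated counts for FKA against control (13190 genes) the test recovered 38%, 92%, 100% and 100% of genes changed 1.5-, 2-, 4- and 8-fold, and called 8 of 12992 unchanged genes. The simulation changed few genes, gave all genes the same spread between libraries, and held no batch or outlying library. It therefore does not give the rate of false calls in these data. The batch label equals the replicate number and so pairs the libraries; the correlation of deviations from group means within batches 1, 2 and 3 was 0.03, 0.30 and -0.07.

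Members, lists and tests were chosen with earlier results of these data known. All 10 members are named. From related lists, all tested genes of the other cathepsins, the CTSA partners and the MiT/TFE factors are named, and elsewhere up to 4 called genes with the largest change and an average of 50 or more counts in the group where it is higher. Of marker lists the 2 most abundant genes, and others needed beside a result, are named. A few genes that these rules take are not reported here. Alternatives were a batch block, DESeq2 1.42.0, other scalings and filters, limma 3.58.1 on log2(FPKM + 1) and log2(FPKM + 0.1), and leaving out libraries.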

Additional observations from a re-analysis of the deposited data

How the results depend on the processing

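The directions of the 9 tested members held under each alternative that gave a value. CTSA, CTSB, CTSC, CTSD, CTSH, CTSK and CTSL also kept their calls, with CTSD between 1.70 and 2.28, CTSK between 2.03 and 2.46 and CTSC between -0.54 and -0.28 on the log2 scale. CTSH ranged from -3.79 to -0.35, the latter on log2(FPKM + 1), which compresses low values, and a mean FPKM of at least 1 left it untested, so that 1 member fell there. CTSS and CTSZ lost their calls without a filter (0.25, adjusted p = 0.0613 in edgeR, and 0.27, 0.07) and without FKA replicates 2 and 3 together (0.23, 0.275, and 0.25, 0.335). With the batch as a replicate block 7 members rose, 2 fell and 8289 genes were called, against 8090. The block changed the call of GM2A, given above, and of IFI30 (1.00, adjusted p = 0.0651 in edgeR), and no other call among the genes named by rule. With 1 library left out, 5 to 6 members rose, 2 fell, and 7090 to 8193 genes were called (3365 to 3981 higher, 3711 to 4212 lower). Without FKA replicates 2 and 3 together, which leaves 1 FKA library that is assumed to vary like the controls, 4619 genes were called, 2020 higher and 2599 lower. With library totals alone 4993 genes were higher and 3282 lower, against 3959 and 4131, on log2(FPKM + 1) 4968 and 3190, and on log2(FPKM + 0.1) 5013 and 3235.

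Shares by summed counts, which ignore length, were 26.3% in controls and 34.8% with FKA for CTSB, 28.6% and 13.0% for CTSC, and 4.94% and 13.1% for CTSD. They were 9.78% and 7.5% for CTSZ, 0.502% and 1.53% for CTSK, and 0.574% and 1.51% for CTSL. CTSA had 5.86% and CTSH 0.146% of control counts, and CTSS 17.6% of counts with FKA. In FKA replicate 1 alone the FPKM shares of CTSF, CTSK and CTSS were 0.0136%, 3.51% and 16.0%. Depth limits CTSF and the FKA counts of CTSH, which are 10 in all.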

Other observations

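Class II genes, whose invariant chain cathepsin S cuts, were read from a list of 9, of which 7 were in the table and 3 were tested. HLA-DRA and HLA-DRB1 were not analysed here. HLA-DPA1, HLA-DPB1, HLA-DMB and CIITA were too low to be tested, with group means of at most 0.0438, 0.00957, 0.33 and 0.00862 FPKM. CD74, the invariant chain itself, fell by 0.63 on the log2 scale (SE 0.118, adjusted p = 0.00174 in edgeR), from 24.5 to 17.8 FPKM. HLA-DMA, a subunit of the peptide exchanger, rose by 1.80 (SE 0.305, adjusted p = 0.000974 in edgeR), from 0.849 to 3.29 FPKM. IFI30, the lysosomal thiol reductase, was at 1.01 (SE 0.364, adjusted p = 0.0386 in edgeR) and lost its call without control replicate 2 (0.81, 0.127) or 3 (0.90, 0.115) and without FKA replicate 2 (0.71, 0.157) or 3 (1.08, 0.0621). With the batch as a replicate block it stood at 1.00 (0.0651).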
